A study of Mus musculus with 72 samples.

Results

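Kidney cortex of Balb/c mice exposed to 177Lu at an absorbed dose of 10 Gy was compared with control kidney cortex at 4.5 months. The comparison used 3 arrays of the 10 Gy group and 3 arrays of the control group, chosen by their labelled dose, time and tissue alone, out of 72 arrays in 24 groups. The other groups held cortex or medulla at 1.5, 3 or 4.5 months with 0.3, 3 or 10 Gy or as controls, with 3 arrays each. Every group was labelled as the Balb/c strain, and the control samples carried the same nuclide tag as the exposed ones with no dose entered. The labels used here do not say what the controls received, how old the mice were or of which sex, or whether each array had a mouse of its own. The spread behind the p-values is therefore that of arrays with 1 label and may be technical. In a piece of tissue, fewer cells of a type and less RNA per cell cannot be told apart.

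As background, 177Lu is a beta-emitting radionuclide that is coupled to peptides or antibodies in targeted radionuclide therapy, where the kidney is an organ at risk because its proximal tubules take up filtered peptides. Ionizing radiation activates the transcription factor p53, which switches on genes of cell cycle arrest (Cdkn1a), of its own degradation (Mdm2) and of cell death. The kidney also runs a strong circadian clock, in which CLOCK and BMAL1 (the product of Arntl) drive the Per and Cry genes through E-box elements, and PER and CRY proteins in turn repress that drive.

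Of the segment markers checked, Slc12a3, Slc14a2, Aqp2 and Slc12a1 told the cortex arrays from the medulla arrays. The ranges of Slc34a1, Slc5a2, Lrp2 and Umod overlapped between the tissues. Slc5a2 ran from 8.55 to 9.95 in cortex and from 7.79 to 8.61 in medulla. Slc34a1 averaged 14.48 in 10 Gy cortex and 14.44 in 10 Gy medulla, and Lrp2 7.41 and 7.46. In addition, 2 of the 6 cortex arrays carried more of an inner medulla marker than the others. Slc12a3, the sodium chloride cotransporter of the distal convoluted tubule, averaged 13.06 on the log2 intensity scale in 10 Gy cortex and 13.15 in control cortex, against 11.59 and 11.34 in medulla of the same groups. Slc14a2, the urea transporter of the inner medulla, had 8.92, 6.97 and 6.82 in 10 Gy cortex and 6.95, 7.75 and 9.27 in control cortex, against means of 11.25 and 11.77 in 10 Gy and control medulla. It was highest on 10 Gy replicate 1 and on control replicate 3. Values without both of these arrays, a setting chosen after seeing the data, are given for the counts and for some of the genes and lists. The array medians of intensity lay between 143.5 and 143.9. Across genes, the mean Pearson r of each of the 6 arrays with the other cortex arrays was 0.964 to 0.974. A control cortex array at 1.5 months had a mean r of 0.617 and was left out of every fit. Pairs within the 10 Gy group correlated at 0.975 to 0.978, pairs within the control group at 0.981 to 0.987 and pairs across the groups at 0.975 to 0.986, so the groups did not separate on this measure.

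No gene passed an adjusted p of 0.05 between 10 Gy and control cortex at 4.5 months, which is 0% of 8105 genes tested with limma. At an unadjusted p under 0.05 there were 376 genes (4.64%), 212 higher (2.62%) and 164 lower (2.02%) at 10 Gy. The values below are therefore descriptions of levels on 6 arrays, and differences are log2 differences, 10 Gy minus control, with the standard error of the fit. The 3 arrays of a group lay wholly above the 3 of the other in 737 genes (9.09%), 403 higher (4.97%) and 334 lower (4.12%) at 10 Gy. With a difference of at least 1.5-fold in addition there were 23 genes (0.284%), 5 higher (0.0617%) and 18 lower (0.222%) at 10 Gy. That count was 120 without 10 Gy replicate 1 and 32 without control replicate 2, and between these without any of the other 4 arrays. Without both 10 Gy replicate 1 and control replicate 3 it was 136, 27 higher and 109 lower, on 2 arrays a group, and 0 genes passed by limma, while 428 had an unadjusted p under 0.05. The 5 higher genes were Cdkn1a, Ltc4s, Slc40a1, Kcne1l and Tbxas1. Of the 18 lower genes, Cox8b, Cidea, Tfrc, Ak4, Coq10b, Tsc22d3, Per2, Usp2 and Hp are described with their lists or neighbours, and Slc23a3, Ifi27l2a, Smoc1, Cd1d1, Inmt, Mrap, Apoc1, Agpat2 and Actg1 are the others. Over all genes the difference was above 0 in 52.2% and below 0 in 47.8%, its median was 0.00658, and the median standard error was 0.124.

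Genes of iron transport were among the genes apart by at least 1.5-fold in both directions. Slc40a1, which encodes ferroportin, the exporter of iron from cells, had log2 intensities of 12.41, 12.38 and 12.58 in 10 Gy cortex, against 11.93, 11.95 and 11.50 in control cortex. All 3 arrays at 10 Gy lay above all 3 controls. The difference was 0.67 ± 0.13 (SE), or 1.59-fold, with an adjusted p of 0.153 by limma, the smallest of the comparison. Tfrc, the transferrin receptor that takes up iron, had 9.80, 10.21 and 10.43 at 10 Gy, against 11.08, 10.70 and 11.08 in controls, without overlap. Its difference was -0.81 ± 0.21 (limma adjusted p 0.635), and its second probe gave -0.75. Without both arrays high in Slc14a2 the difference was -0.57 for Tfrc and 0.55 for Slc40a1. Of 16 iron and heme genes kept out of 25 on the array, 11 were below 0 with a median difference of -0.10. The groups of Hp (haptoglobin) and Hmox2 (a heme oxygenase) were also lower without overlap, which makes 3 of 16 lower, against 4.12% of all genes. Hp had 7.44, 7.35 and 7.07 at 10 Gy, against 7.49, 8.58 and 7.65 in controls. Hmox2 had 9.80, 9.75 and 9.71, against 9.81, 10.28 and 9.81. Both were highest on control replicate 2. Their smallest differences over the alternative settings were -0.28 for Hp and -0.06 for Hmox2. The other probes of Hp gave -0.20 and -0.27. Fth1, the ferritin heavy chain, differed by 0.02 ± 0.11 at levels near 14.4. The 4 erythroid markers kept, 3 of which were below 0, summed to intensities of 12068 to 13689 on the 10 Gy arrays and 12938 to 18354 on the control arrays. Their part in the iron values was not tested.

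Ak4 and Coq10b were lower by comparable amounts. Ak4, a mitochondrial adenylate kinase, had 11.13, 11.33 and 11.27 at 10 Gy, against 12.08, 12.13 and 11.86 in controls. The groups lay far apart relative to their spread, and the difference was -0.78 ± 0.16 (limma adjusted p 0.153). Coq10b, a mitochondrial protein that binds coenzyme Q, had 10.48, 10.67 and 10.43 at 10 Gy, against 11.34, 11.17 and 11.23 in controls, a difference of -0.72 ± 0.19 (limma adjusted p 0.674). A second Coq10b probe gave -0.64, and another, below the intensity floor of 150 on every array, -0.07. Among 37 respiratory chain genes kept, 14 had positive and 23 negative differences, and the median was -0.02. Atp5c1, a subunit of ATP synthase, differed by 0.28 ± 0.10, and Atp5d, another subunit of it, by -0.17 ± 0.07. Wfdc15b, of the whey acidic protein family, differed by -0.53 ± 0.14 (limma adjusted p 0.674), and without 10 Gy replicate 1 by -0.77 with an adjusted p of 0.0148, the 1 gene past the threshold in that setting.

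Some genes with lower values at 10 Gy are at higher levels in medulla, and the 2 cortex arrays with the most Slc14a2 were the highest of their groups for the 3 given here, which were chosen after their values were seen. Slc23a3, a member of the SLC23 transporter family, had 10.13, 9.20 and 9.16 at 10 Gy, against 10.18, 10.30 and 10.56 in controls, and averaged 11.85 in 10 Gy medulla and 11.95 in control medulla. Its groups did not overlap in cortex, and the difference was -0.84 ± 0.25 (limma adjusted p 0.853). Mep1b, a meprin subunit, had 9.10, 8.39 and 7.58, against 8.96, 8.88 and 9.91, and Arg2, a mitochondrial arginase, had 8.53, 7.76 and 7.20, against 8.30, 8.28 and 9.09, both with overlap. Without both arrays the differences were -1.05 for Slc23a3, -0.93 for Mep1b and -0.81 for Arg2, against -0.84, -0.89 and -0.72 with all 6. The part of medulla tissue in these values was not tested.

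The other genes with large differences and no overlap were on none of the gene lists. Kcne1l, of the potassium channel subunit family, had 8.73, 8.49 and 8.48 at 10 Gy, against 8.27, 7.74 and 7.81 in controls, a difference of 0.63 ± 0.18 (limma adjusted p 0.818). Ndrg1, a stress-responsive gene, had 13.77, 14.04 and 14.04, against 13.42, 13.51 and 13.53, and Ptpn22, a phosphatase of immune cells, 8.44, 8.52 and 8.54, against 8.31, 8.16 and 7.67. Also among the 12 largest positive differences were Cirbp (0.51), Rab3b (0.50), Pde1a (0.49, described with the medulla), Atp12a (0.44) and Dusp26 (0.43). For Rab3b, Atp12a and Dusp26 only 1 of the 3 control arrays reached the floor. On the lower side, Ifi27l2a, an interferon-induced gene, had 11.25, 11.48 and 10.15 at 10 Gy, against 11.74, 11.95 and 11.62 in controls, a difference of -0.81 ± 0.34. Smoc1, a matrix protein, differed by -0.80 ± 0.43 and Cd1d1, a lipid antigen-presenting molecule, by -0.73 ± 0.41. Inmt, a methyltransferase of indoles, differed by -0.72 ± 0.35, and Mrap, a partner of the melanocortin 2 receptor, by -0.70 ± 0.35. Ifi27l2a, Smoc1, Cd1d1, Mrap, Apoc1 and Agpat2 were highest on replicate 2 of both groups, as most adipocyte markers below were, and Inmt was not. Controls at 4.5 months exceeded those at 3 months by 1.60 for Ifi27l2a, 1.46 for Cd1d1, 1.01 for Mrap and 0.31 for Inmt. The part of fat tissue in these genes was not tested.

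**Figure D1:**
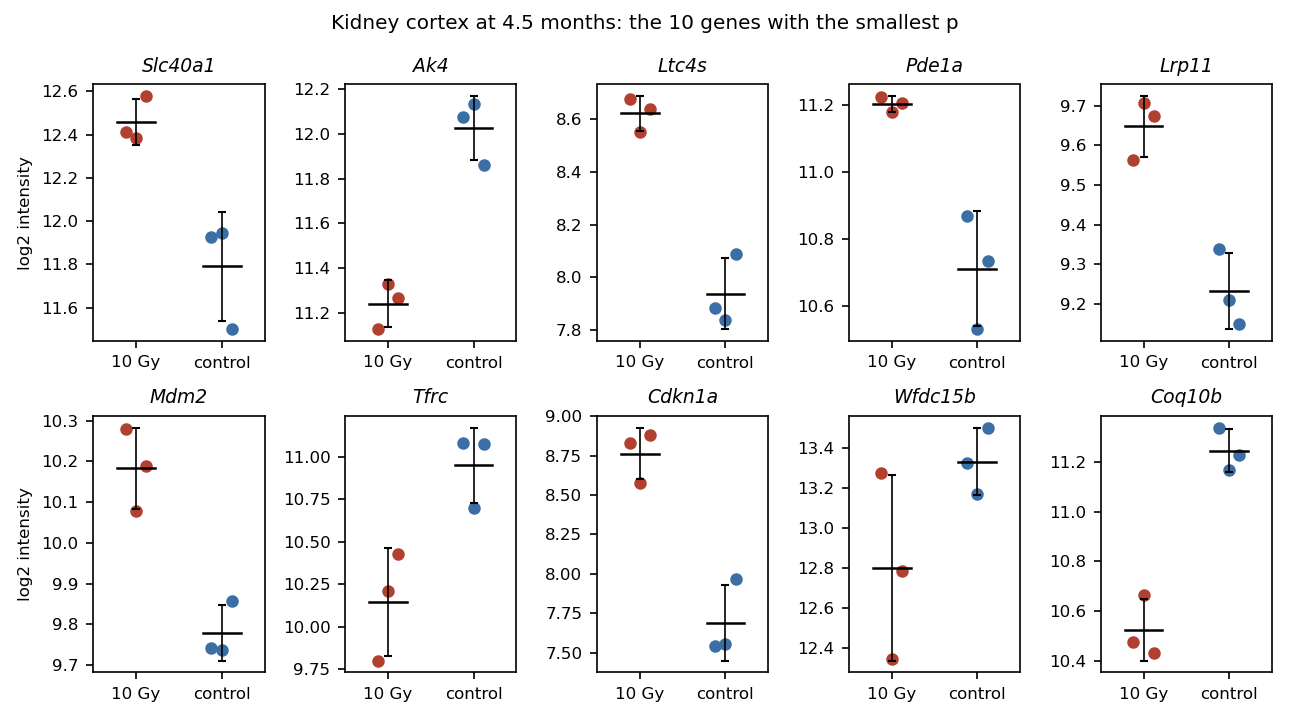
Log2 intensity on each array (points) with the group mean and SD (lines, n = 3) for the 10 genes with the smallest p, 10 Gy cortex left of control cortex at 4.5 months. The 2 groups overlap only for Wfdc15b, whose 10 Gy arrays spread from 12.34 to 13.27, against 13.17 to 13.50 in controls, and each panel has its own axis, which does not start at 0.

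Among p53 targets, the cell cycle inhibitor Cdkn1a (p21) had the largest positive difference of the comparison. Its levels were 8.83, 8.58 and 8.88 at 10 Gy, against 7.54, 7.56 and 7.97 in controls. The groups did not overlap, and the difference was 1.07 ± 0.28, or 2.10-fold (limma adjusted p 0.639). The other 2 probes of Cdkn1a gave 0.49 and, with 3 of 6 arrays at the floor or above, 0.38. Mdm2, the ubiquitin ligase that degrades p53, had 10.28, 10.08 and 10.19 at 10 Gy, against 9.74, 9.74 and 9.86 in controls, also without overlap. Its difference was 0.40 ± 0.10 (limma adjusted p 0.527), while its other probes gave 0.20 and 0.01, the last below the intensity floor of 150 on 4 of the 6 arrays.

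Further p53 targets differed by less. Ccng1, which encodes cyclin G1, had 11.82, 11.80 and 12.26 at 10 Gy, against 11.74, 11.60 and 11.62 in controls. Plk2, a polo-like kinase, had 7.84, 7.84 and 7.82, against 7.68, 7.62 and 7.68. Both groups of arrays were apart for both genes, with differences of 0.31 ± 0.13 for Ccng1 and 0.17 ± 0.07 for Plk2. The other 2 probes of Ccng1 gave 0.14 and 0.16. The death genes Pmaip1 (NOXA) and Bbc3 (PUMA) overlapped between groups, with differences of 0.31 ± 0.14 and 0.19 ± 0.12. Phlda3, an inhibitor of AKT, differed by -0.21 ± 0.24.

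Of 30 p53 targets on the array, 21 passed the floor, 18 of them above 0 and 3 below, with a median difference of 0.14 against 0.00658 for all genes. In 4 of them the 10 Gy arrays lay wholly above the controls, against 4.97% of all genes, and in 0 wholly below. Leaving out each array in turn gave medians of 0.10 to 0.17, and averaging every probe of a gene gave 0.07. DNA repair genes had a median of 0.05 over 18 genes, with 12 above 0. Atm, the kinase that signals double-strand breaks, differed by 0.29 ± 0.13 with overlap, and Polb, the base excision repair polymerase, had 7.37, 7.47 and 7.52 at 10 Gy, against 7.69, 7.64 and 7.68 in controls. Of 18 apoptosis genes, 11 had positive and 7 negative differences, and the median was 0.04.

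The clock genes showed the reverse pattern. Per2, a repressor of the clock, had 9.81, 10.48 and 10.15 at 10 Gy, against 10.99, 10.88 and 10.67 in controls. Every 10 Gy array was below every control, by -0.70 ± 0.26 on average (limma adjusted p 0.997), and a second probe above the floor gave -0.71. Usp2, a deubiquitinase with rhythmic expression, had 10.38, 10.48 and 10.90, against 11.22, 11.35 and 11.22, a difference of -0.68 ± 0.20 (limma adjusted p 0.843). Its 2 dimmer probes gave -0.18 and -0.10.

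Per1, Per3 and Ciart, a repressor of CLOCK and BMAL1, also lay lower at 10 Gy without overlap. Ciart had 7.53, 7.56 and 7.73 at 10 Gy, against 8.05, 8.12 and 7.98 in controls. The differences were -0.40 ± 0.34 for Per1, -0.34 ± 0.14 for Per3 and -0.44 ± 0.24 for Ciart, and second probes gave -0.28 for Per1 and, with 4 of 6 arrays at the floor or above, -0.64 for Ciart. Dbp, a clock output factor, differed by -0.34 ± 0.19 and Tef, of the same factor family, by -0.32 ± 0.19, both with overlap. Arntl and Clock, the activators, had positive differences of 0.19 ± 0.11 and 0.11 ± 0.12, with overlap as well. Of 16 clock genes kept out of 21 on the array, 13 were below 0, the median was -0.28, and 5 lay wholly below controls, against 4.12% of all genes. Leaving out each array in turn gave medians of -0.32 to -0.23. Control arrays of 1 time also varied, with 9.44 and 10.97 for Per2 on the 2 arrays used at 1.5 months. The labels used here give no time of day for the sampling, and its part in these values was not tested.

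The upstream sequences below belong to the clock genes that lay wholly lower at 10 Gy and that carry a clock element within 250 bases before the RefSeq start (GRCm38.p6). They are written 5′ to 3′ on the gene's strand, with the element in capitals: the E-box CACGTG, a palindrome, or the D-box TTATGTAA, searched on both strands. The E-boxes and D-boxes do not overlap. Ciart is shown from 127 to 28 bases before the start, Per1 from 213 to 114 and Per3 from 228 to 129.
Ciart, chr3:95882256-95882355, minus strand: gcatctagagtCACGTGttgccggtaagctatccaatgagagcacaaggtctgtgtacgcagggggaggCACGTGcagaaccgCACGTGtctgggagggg
Per1, chr11:69098736-69098835, plus strand: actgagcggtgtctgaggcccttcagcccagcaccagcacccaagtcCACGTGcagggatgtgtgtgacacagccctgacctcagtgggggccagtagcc
Per3, chr4:151044794-151044893, minus strand: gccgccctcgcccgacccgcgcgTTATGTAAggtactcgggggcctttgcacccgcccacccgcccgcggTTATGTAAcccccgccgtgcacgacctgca

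Ciart held 3 E-boxes, Per1 held 1 and Per3 held 2 D-boxes. An E-box was found in 6.02% of 32851 promoter windows of this length and a D-box in 0.819%. Of the 16 clock genes, 14 had a window, 3 with an E-box (Ciart, Per1 and Tef) and 1 with a D-box. Per2 and Bhlhe40 had no window and were not searched. The window of Usp2 held neither set of letters. A match describes the sequence and is not a measured site.

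**Figure D2:**
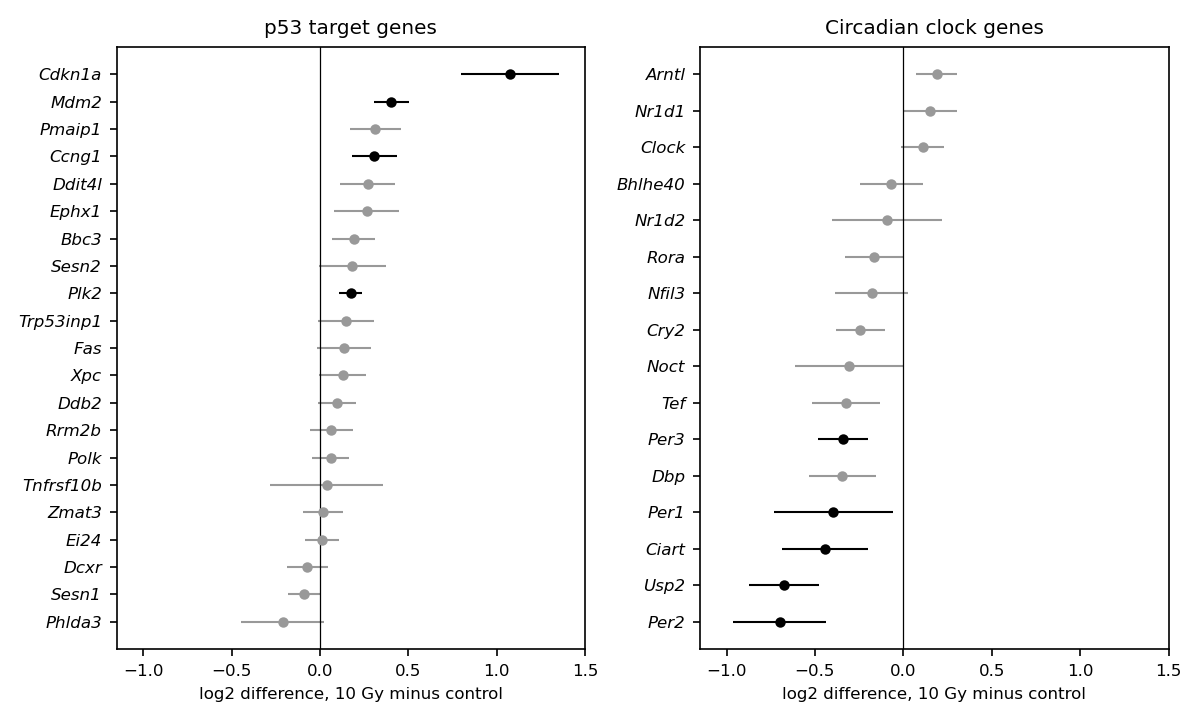
Log2 difference, 10 Gy minus control, with its SE for the 21 p53 targets and the 16 clock genes kept, in cortex at 4.5 months. Black points mark genes whose groups of 3 arrays do not overlap, 4 p53 targets above 0 and 5 clock genes below 0, and no gene passed the adjusted threshold.

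Glucocorticoid targets were mixed. Tsc22d3 (GILZ), a gene that glucocorticoids induce, had 10.27, 10.30 and 10.47 at 10 Gy, against 10.86, 10.79 and 11.50 in controls, a difference of -0.70 ± 0.26 without overlap, which was -0.44 without both arrays high in Slc14a2. Its second probe, with 3 of 6 arrays at the floor or above, gave -0.26. Sgk1, a kinase they also induce, differed by -0.52 ± 0.34 with overlap. The list of 17 genes, which includes Cdkn1a, Per1 and Hsd11b2, had 11 below 0 and a median of -0.07, which was 0.03 without control replicate 2 and -0.17 without control replicate 1.

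Eicosanoid genes supplied 2 of the 5 largest positive differences without overlap. Ltc4s, leukotriene C4 synthase, had 8.68, 8.55 and 8.64 at 10 Gy, against 7.88, 7.84 and 8.09 in controls. The gap between the groups was wider than either group's range, and the difference was 0.68 ± 0.16, or 1.61-fold (limma adjusted p 0.322). Tbxas1, thromboxane A synthase, had 9.08, 9.38 and 9.57 at 10 Gy, against 8.88, 8.87 and 8.51, a difference of 0.59 ± 0.22, but its second probe gave 0.08. Of 16 pathway genes kept, 9 had positive and 7 negative differences, and the median was 0.02. Of these 16, 2 lay wholly higher, against 4.97% of all genes. Alox5ap, which presents arachidonic acid to 5-lipoxygenase, differed by -0.06 ± 0.14, and Lta4h, which makes leukotriene B4, by 0.03 ± 0.17. Hdc, a mast cell marker that cortex also expresses, differed by -0.01 ± 0.64.

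Of 19 genes in the cholesterol list, 16 were below 0 with a median of -0.19, and none passed the test. Srebf1, the lipogenic transcription factor, had 7.47, 7.66 and 7.62 at 10 Gy, against 8.22, 8.17 and 8.04 in controls, a difference of -0.56 ± 0.18 (limma adjusted p 0.930), and its second probe, below the floor on every array, gave -0.08. Besides Srebf1, the list had 4 genes wholly below controls, Sqle, Dhcr7, Mvd and Hsd17b7, which makes 5 of 19, against 4.12% of all genes. The second probe of Sqle gave -0.13. Leaving out 10 Gy replicate 1 brought the median to -0.06, and leaving out replicate 2 to -0.23. Without both arrays high in Slc14a2 it was -0.07, with 12 of 19 genes below 0.

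Adipocyte markers were below 0 in 14 of 14 genes, with a median of -0.48. Cidea, a lipid droplet protein of brown fat, had 7.52, 8.56 and 8.39 at 10 Gy, against 9.02, 9.91 and 8.65 in controls, a difference of -1.04 ± 0.73. Adipoq, the defining hormone of fat cells, had 10.45, 11.30 and 9.80 at 10 Gy, against 11.09, 11.58 and 10.11, with overlap. In both groups replicate 2 was highest for 12 of the 14 genes. The summed intensity of the list was 19324 to 36583 on the 10 Gy arrays and 30892 to 45156 on the control arrays, and the control arrays at 4.5 months exceeded those at 3 months by a median of 0.99. Leaving out control replicate 2 brought the median difference at 10 Gy to -0.19, and leaving out 10 Gy replicate 2 to -0.75. Cox8b, a respiratory chain subunit of brown fat and muscle, had 8.97, 9.21 and 9.16 at 10 Gy, against 9.76, 10.67 and 10.07 in controls, a difference of -1.05 ± 0.78, and was also highest on replicate 2 of each group. The part of fat tissue in these values was not tested.

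Genes of antigen presentation varied more between arrays of a group than between the groups. Cd74, the MHC class II invariant chain, had 13.58, 11.16 and 11.28 at 10 Gy, against 11.63, 14.10 and 11.85 in controls. H2-Ab1, an MHC class II chain, had 13.57, 10.93 and 10.84, against 11.58, 14.13 and 11.81. High values were on 10 Gy replicate 1 and control replicate 2. Of 9 MHC class II genes, 8 were highest on 10 Gy replicate 1 within that group and 8 on control replicate 2, and all 12 MHC class I and immunoproteasome genes kept shared that order.

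The MHC class II median was -0.49 with 9 of 9 genes below 0, -1.17 without 10 Gy replicate 1 and 0.08 without control replicate 2. MHC class I gave -0.26, -0.64 and 0.08 in the same order. Among 23 interferon-stimulated genes, 21 were below 0 with a median of -0.27, which was -0.59 without 10 Gy replicate 1 and -0.09 without 10 Gy replicate 3. Without both arrays high in Slc14a2, one of which is also 10 Gy replicate 1, the medians were -1.38, -0.81 and -0.56. Over these 3 lists 0 genes had groups apart, against 9.09% of all genes. In medulla at 4.5 months, 8 of the 9 MHC class II genes were highest on 10 Gy replicate 1 and 9 on control replicate 2. The control cortex arrays at 4.5 months exceeded those at 3 months by a median of 1.35 for MHC class II. For MHC class I this was 0.88 and for interferon-stimulated genes 0.64. At 3 months the medians of 10 Gy minus control in cortex were 0.68, 0.30 and 0.25 in the same order of lists.

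Macrophage markers had 15 of 17 genes below 0 and a median of -0.16, with summed intensities of 7548 to 11398 at 10 Gy and 7362 to 13726 in controls. Leaving out control replicate 3 brought this median to -0.04, and leaving out control replicate 1 to -0.32. The control cortex arrays at 4.5 months exceeded those at 3 months by a median of 0.50 for this list, with 1 of 17 genes below 0. At 3 months 10 Gy minus control had a median of 0.13, also with 1 of 17 genes below 0. C1qa, a complement chain made by macrophages, had 7.47, 7.23 and 7.48 at 10 Gy, against 7.55, 7.67 and 7.83. Adgre1, a surface marker of macrophages, differed by -0.39 ± 0.14 with overlap. The chemokines Ccl12 and Cxcl1 lay lower without overlap, by -0.42 ± 0.16 and -0.38 ± 0.21. Of 16 genes of chemokines and their receptors, 2 lay wholly lower, against 4.12% of all genes. Controls at 4.5 months differed from those at 3 months by 0.88 for Adgre1, 0.26 for C1qa, 0.72 for Ccl12 and -0.12 for Cxcl1. Of the lymphocyte, neutrophil and mast cell lists, only 1 of 19, 2 of 11 and 2 of 12 genes passed the floor.

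**Figure D3:**
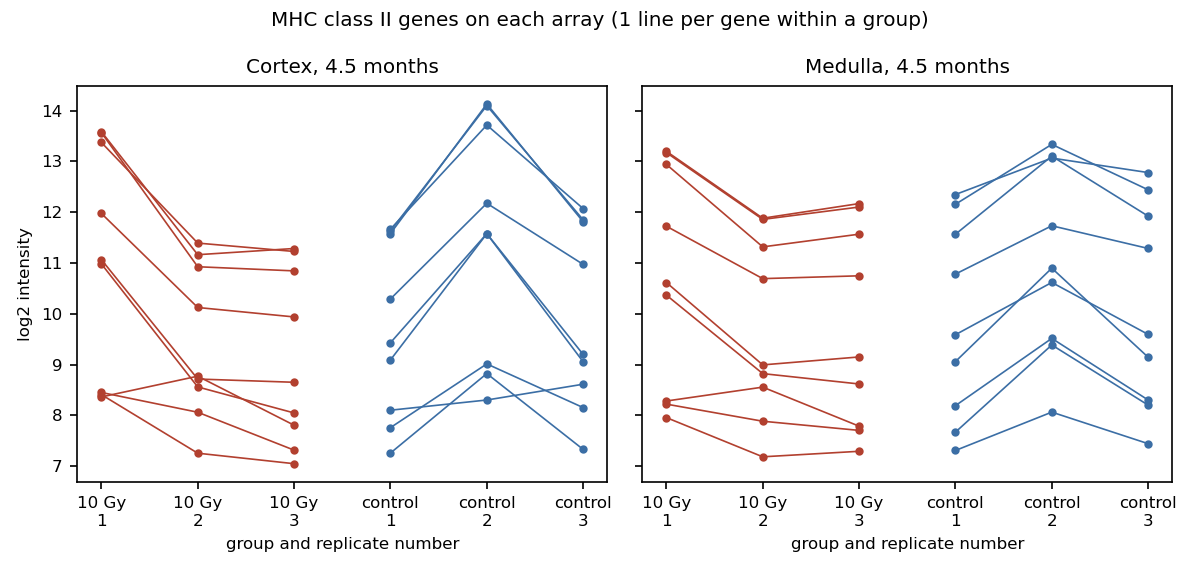
Log2 intensity of the 9 MHC class II genes on each array at 4.5 months in cortex and medulla, 10 Gy arrays left of control arrays, with 1 line per gene within a group. In both tissues at least 8 of the 9 genes peak at 10 Gy replicate 1 and at least 8 at control replicate 2, and Cd74 in cortex spans 11.16 to 13.58 at 10 Gy and 11.63 to 14.10 in controls.

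No nephron marker passed the test, and the values by segment follow. Hsd11b2, which inactivates corticosterone in the collecting duct, had 10.15, 10.29 and 10.32 at 10 Gy, against 10.73, 10.82 and 10.76 in controls, a difference of -0.52 ± 0.19. Aqp3, the basolateral water channel of principal cells, had 10.43, 10.50 and 10.42, against 10.72, 10.88 and 10.92, a difference of -0.39 ± 0.13. Both were lower without overlap, and 2 of 11 principal cell markers lay wholly lower, against 4.12% of all genes. Aqp2, the apical channel, differed by -0.24 ± 0.15 with overlap, and Scnn1g, a subunit of the sodium channel, by 0.05 ± 0.14. Scnn1a, another subunit of that channel, differed by -0.50 ± 0.20 with overlap, and by -0.25 without both arrays high in Slc14a2. Of 11 principal cell markers, 8 were below 0 with a median of -0.22, which was -0.11 without control replicate 3.

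Distal convoluted tubule markers were below 0 in 11 of 11 genes, but the median was -0.11. It was -0.05 without 10 Gy replicate 1 and -0.00613 without both arrays high in Slc14a2. The 10 Gy arrays lay wholly below controls only for Slc8a1, the sodium calcium exchanger (-0.31 ± 0.17), 1 of 11 genes, against 4.12% of all genes. Slc12a3 itself differed by -0.09 ± 0.18. Loop of Henle markers had 9 of 12 genes below 0 and a median of -0.08, which was 0.06 without both arrays high in Slc14a2. In 2 of the 12 genes the 10 Gy arrays lay wholly lower, against 4.12% of all genes. Intercalated cell markers were above 0 in 10 of 11 genes with a median of 0.08 (0.0058 without 10 Gy replicate 3), and Foxi1, their transcription factor, had 7.70, 7.82 and 7.92 at 10 Gy, against 7.68, 7.48 and 7.61. The 38 proximal tubule markers had a median of 0.05, 20 of them positive and 18 negative. Miox, myo-inositol oxygenase of proximal tubule cells, had 14.33, 14.26 and 14.38 at 10 Gy, against 14.03, 13.82 and 14.18, without overlap.

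Tubular injury genes had a median of -0.00567 over 18 genes, 0 of them with groups apart, against 9.09% of all genes. Matrix and TGF-beta genes had a median of 0.00427 over 27 genes, with 1 gene wholly higher and 3 wholly lower, against 4.97% and 4.12% of all genes. The 11 podocyte and 21 endothelial markers had medians of -0.04 and -0.03. The 10 smooth muscle and mesangial markers had a median of -0.14, which was -0.07 without both arrays high in Slc14a2. In 3 of these 10 genes the 10 Gy arrays lay wholly lower, against 4.12% of all genes.

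**Figure D4:**
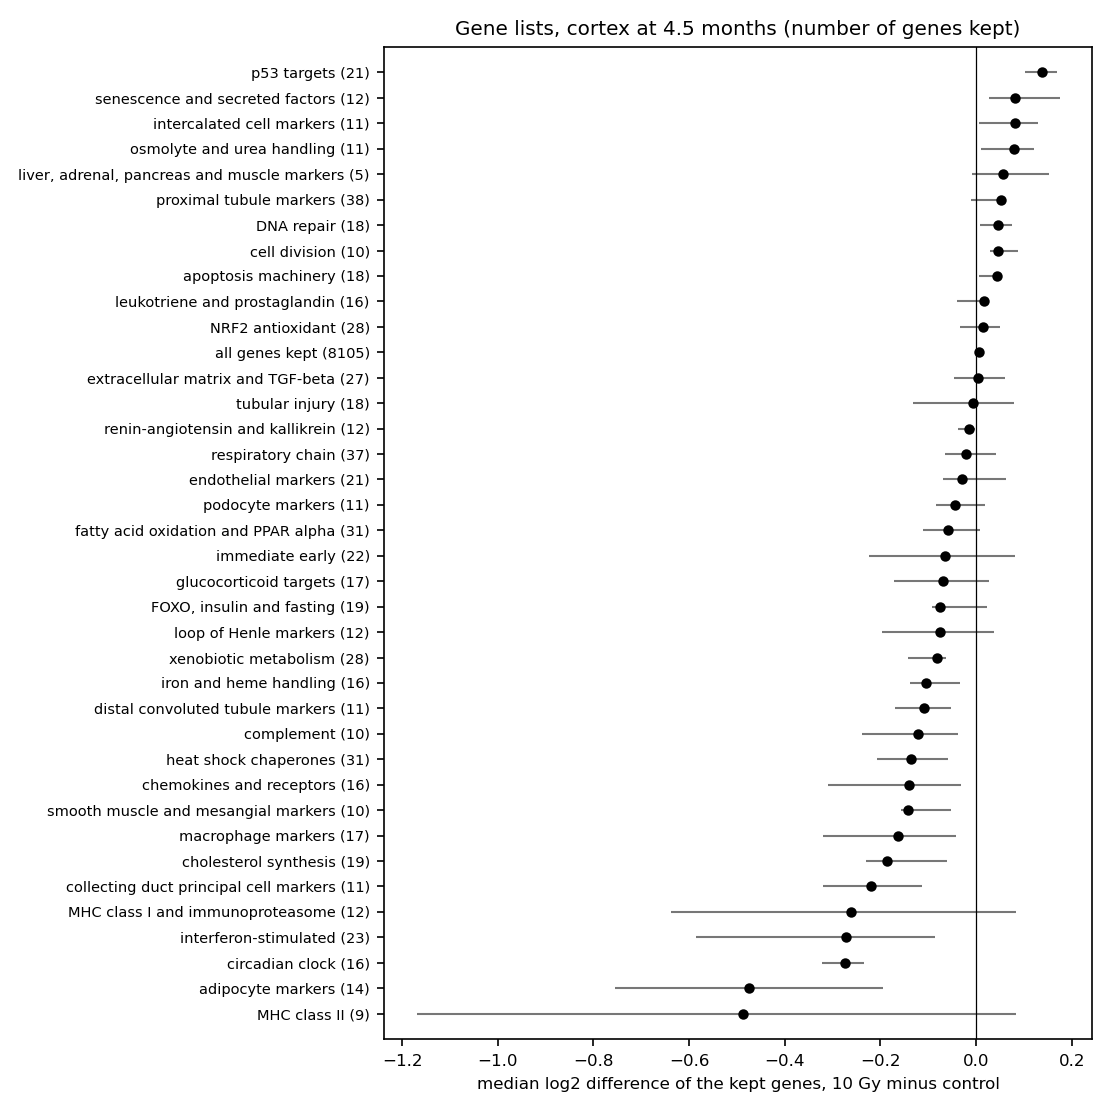
Median log2 difference, 10 Gy minus control, of the kept genes of each list with at least 5 (points; number of genes in brackets), with the range of that median when each array is left out in turn (lines). The p53 median of 0.14 and the clock median of -0.28 keep their sign in every case, while the MHC class II line reaches from -1.17 to 0.08.

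Heat shock genes had 25 of 31 below 0 with a median of -0.14, which was -0.06 without control replicate 3 and -0.21 without control replicate 2. Stip1, Chordc1, Fkbp4 and Serpinh1 lay lower at 10 Gy without overlap, 4 of 31 genes against 4.12% of all genes. Chordc1, a partner of HSP90, had 10.42, 10.46 and 10.46 at 10 Gy, against 10.65, 10.62 and 10.93 in controls, a difference of -0.29 ± 0.12 (limma adjusted p 0.997). Dnajb1, an HSP40 chaperone, differed by -0.01.

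The lower doses at 4.5 months gave a second view of these genes, although they share the control arrays with 10 Gy. Cdkn1a averaged 7.69 in controls, 7.75 at 0.3 Gy, 8.09 at 3 Gy and 8.76 at 10 Gy. Ltc4s averaged 7.94 in controls, 8.06 at 0.3 Gy, 8.02 at 3 Gy and 8.62 at 10 Gy. Per2 averaged 10.85, 10.96, 10.89 and 10.15 in the same order. For these 3 genes the 10 Gy arrays lay beyond every array of the lower doses and controls.

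Slc40a1, Mdm2 and Ak4 followed another order. Slc40a1 averaged 11.79 in controls, 12.35 at 0.3 Gy, 12.30 at 3 Gy and 12.46 at 10 Gy. Mdm2 averaged 9.78, 10.31, 10.22 and 10.18 in the same order. Ak4 averaged 12.02, 11.65, 11.50 and 11.24. All 3 doses stood on the same side of these controls for the 3 genes, with no increase by dose for Mdm2. The control mean of Mdm2 was 9.78 at 4.5 months, against 10.05 at 3 months and 9.97 at 1.5 months. That of Ak4 was 12.02, 12.07 and 11.83 in the same order of times. The p53 list as a whole had a median of -0.000234 at 0.3 Gy, -0.00187 at 3 Gy and 0.14 at 10 Gy, and the clock list -0.15, -0.18 and -0.28.

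Tested directly, 10 Gy cortex differed from 3 Gy cortex at 4.5 months in 8 of 8163 genes (0.098%), 2 higher and 6 lower at 10 Gy. Cirbp, a cold-inducible RNA-binding protein, had 8.99, 8.72 and 8.50 at 10 Gy, against 7.89, 7.89 and 8.02 at 3 Gy, and rose by 0.80 ± 0.14 (limma adjusted p 0.0215). Tgif1, a repressor of TGF-beta signalling, rose by 0.84 ± 0.16 (limma adjusted p 0.0251), while its control arrays (8.29, 8.50 and 8.75) overlapped the 10 Gy arrays (8.59, 8.82 and 8.32). Creld2, an endoplasmic reticulum stress gene, fell by 0.89 ± 0.18 on the log2 scale (limma adjusted p 0.0402), and Chordc1 fell by 0.59 ± 0.12 (limma adjusted p 0.0375). The 8 calls became 1 without 10 Gy replicate 1 or 2, 2 without 3 Gy replicate 2 and 12 without 10 Gy replicate 3.

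The other 4 calls against 3 Gy, Hamp, Apoc4, Apof and Apoa2, are genes that the liver makes. Hamp, the iron hormone hepcidin, had 6.85, 6.98 and 6.73 at 10 Gy, below the floor of 7.23, against 7.75, 8.53 and 7.61 at 3 Gy. Apoc4 and Apof were below the floor on every 10 Gy and control array as well. Apoa2 had 7.85, 7.86 and 8.38 at 10 Gy, against 9.98, 10.62 and 8.52 at 3 Gy. Controls stood with 10 Gy for Hamp (6.77, 6.85 and 6.74) and Apoa2 (7.99, 8.04 and 7.52), so the 3 Gy arrays were the ones apart. The 5 kept genes of the list of liver and other organs had a median of 0.45 at 3 Gy and 0.06 at 10 Gy, each against control. The part of liver RNA in these calls was not tested.

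Against 0.3 Gy, 2 of 8012 genes (0.025%) passed. Chordc1 averaged 10.45 at 10 Gy and 11.17 at 0.3 Gy and fell by 0.73 ± 0.12 (limma adjusted p 0.00836). Nuak2, a stress-responsive kinase, had 11.17, 10.85 and 10.90 at 10 Gy, against 12.53, 12.54 and 12.51 at 0.3 Gy, and fell by 1.55 ± 0.28 (limma adjusted p 0.0236). Nuak2 differed by -0.19 ± 0.28 between 10 Gy and controls, whose arrays had 10.98, 11.29 and 11.20. The 2 calls became 0 without 10 Gy replicate 2 or 0.3 Gy replicate 3, 1 without 0.3 Gy replicate 2 and 5 without 10 Gy replicate 3. Cdkn1a and Ltc4s did not pass against 3 Gy, with differences of 0.67 and 0.60 and limma adjusted p of 0.322 and 0.157.

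At earlier times none of 8079 genes at 3 months and none of 8236 at 1.5 months passed for 10 Gy against control (0% each), with 284 and 286 genes at an unadjusted p under 0.05 by limma. Ltc4s was higher at 10 Gy at all 3 times, by 0.76 at 1.5 months, 0.48 at 3 months and 0.68 at 4.5 months, and its groups did not overlap at any of them. Cdkn1a differed by 1.23, 0.37 and 1.07 in the same order. At 3 months the value was lowered by 1 control array at 9.24, beside 7.44 and 7.31 on the other controls, while the 10 Gy arrays had 8.42, 8.22 and 8.47. Per2 differed by 0.19 and 0.12 and Slc40a1 by -0.26 and -0.21 at 1.5 and 3 months, opposite in sign to 4.5 months. At 1.5 and 3 months Mdm2 differed by 0.26 and 0.002, and Ak4 by -0.18 and 0.05. The p53 list had medians of 0.11 at 1.5 months and 0.03 at 3 months, and the clock list 0.02 and -0.02.

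The change of the response between the times was tested as an interaction, and 0 of 8310 genes passed (0%), with 352 at an unadjusted p under 0.05 by limma. Chordc1 came closest: 10 Gy minus control was -0.29 at 4.5 months and 0.61 at 3 months, a difference of -0.90 ± 0.17 (limma adjusted p 0.0715). Gpc3, a glypican of the cell surface, gave 0.95 ± 0.18 (limma adjusted p 0.0781) and Slc40a1 0.87 ± 0.18 (limma adjusted p 0.147).

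**Figure D5:**
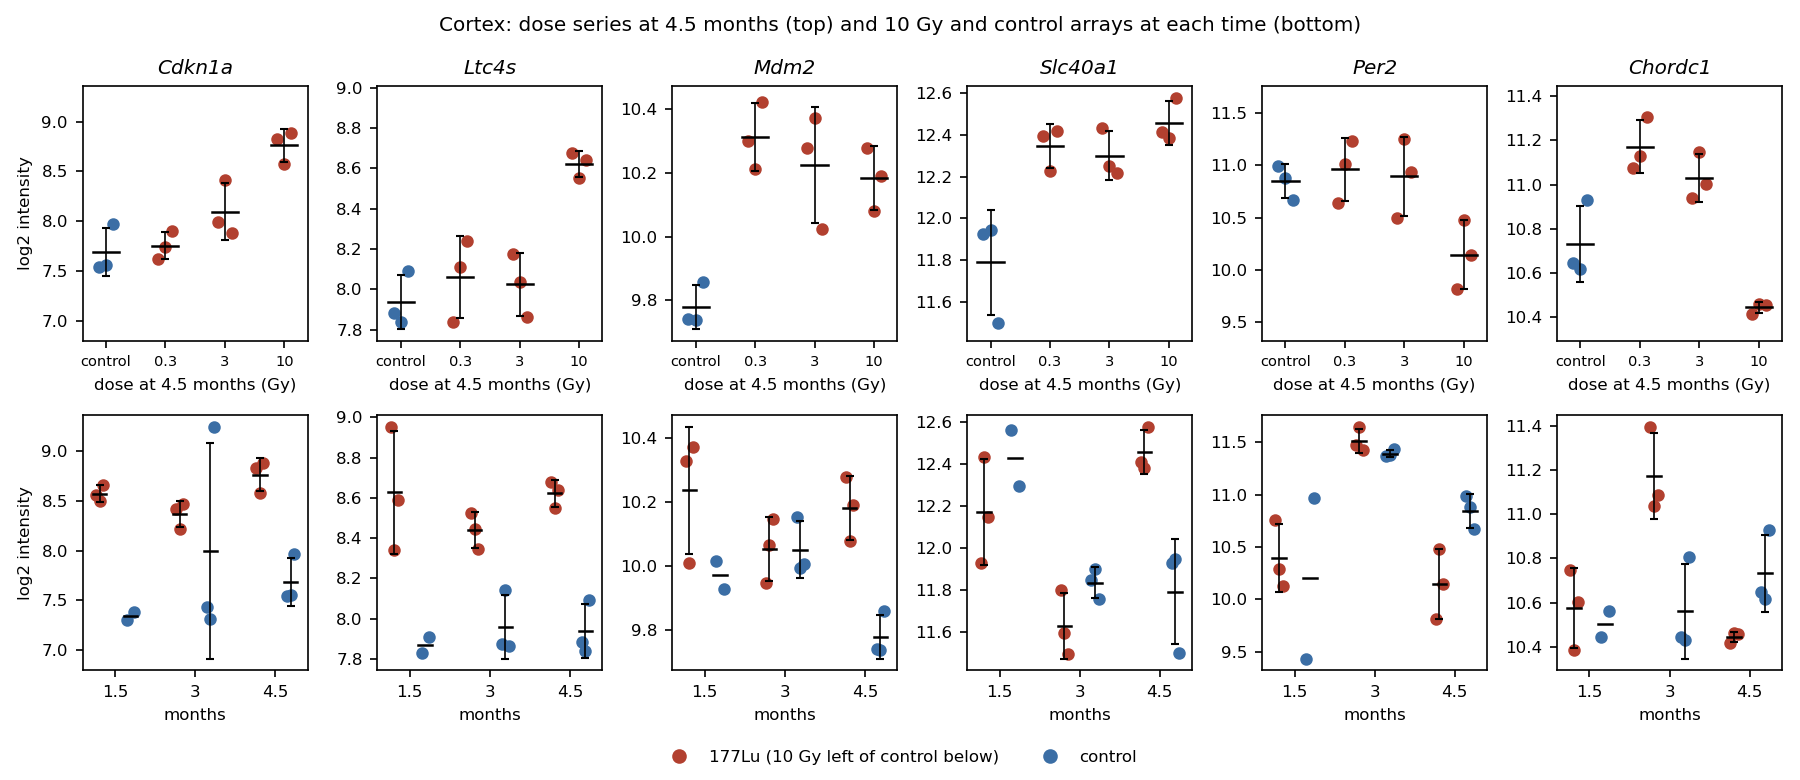
Log2 intensity of 6 genes on each cortex array with the group mean and SD (n = 3, no SD for the 2 controls at 1.5 months), by dose at 4.5 months in the top row and for 10 Gy left of control at 1.5, 3 and 4.5 months in the bottom row. Cdkn1a, Ltc4s, Per2 and Chordc1 at 10 Gy lie beyond all arrays of the other groups at 4.5 months, whereas Mdm2 and Slc40a1 stand apart from controls at all 3 doses.

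Medulla at 4.5 months gave the same comparison on other arrays, and the labels do not say whether cortex and medulla came from the same kidneys. Deviations from the group mean on same-numbered cortex and medulla arrays correlated at 0.38, 0.56 and 0.52 at 10 Gy, against -0.40 to -0.09 for different numbers. In controls these were 0.27, -0.06 and 0.27, against -0.32 to 0.10. The medulla values may therefore not be independent of those in cortex. Cdkn1a had 8.43, 8.26 and 8.41 in 10 Gy medulla, against 7.88, 7.85 and 8.03 in control medulla, and Per2 had 9.79, 10.02 and 9.81, against 10.87, 10.23 and 10.64. Slc40a1 had 11.95, 11.72 and 11.73, against 11.49, 11.41 and 11.20, and Ak4 10.92, 10.88 and 10.86, against 11.57, 11.40 and 11.42. The groups were apart in the direction seen in cortex for all 4 genes. Mdm2 differed by 0.07 in medulla with overlap. Ccng1 differed by -0.01 in medulla with overlap, and Plk2 by -0.10 with the 10 Gy arrays wholly below controls, the opposite of cortex. The list medians in medulla were 0.13 for p53 targets and -0.21 for clock genes. The fit of the tissues took cortex and medulla arrays as independent. In it the response differed between cortex and medulla for 1 of 8515 genes (0.0117%), Pde1a, a calcium-dependent phosphodiesterase. In cortex Pde1a had 11.23, 11.18 and 11.21 at 10 Gy, against 10.87, 10.53 and 10.73 in controls, a difference of 0.49 ± 0.11, with 0.39 and 0.40 by its other probes. In medulla it had 10.82, 11.25 and 10.98, against 11.36, 11.33 and 11.15, a difference of -0.26, with overlap. No gene passed in 8 of the 12 fits that left out 1 array. A replicate block shared by the tissues, chosen after seeing the data, gave 4 calls, Pde1a among them.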

How the data were processed

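Total RNA (RNeasy Lipid Tissue Mini Kit, Bioanalyzer quality control) was biotin-labelled for Illumina arrays, per the labels' protocols. The deposited values are intensities on a linear scale with a minimum of 95.35. Their sorted columns differ by at most 1.262 units, a match that the values show and no label explains. The authors' software and genome build are not given in the sources used here. Another deposited table, of values before normalization, has 144 columns that no label ties to samples, and none of them was used.

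The log2 of the deposited intensity was taken with no pseudocount. The platform annotation gave 1 gene symbol to 23978 of 25697 probes, several to 0 and none to 1719. For each of 16593 genes the brightest probe on average over all arrays was used, and the gene was tested if all 3 arrays of either group reached an intensity of 150. The number of arrays limits the precision. Limma 3.58.1 (lmFit, then eBayes with an intensity trend) in R 4.3.3 fitted 35 cortex arrays together, or 71 arrays for the contrast of tissues, without 1 array that stood apart. The p-values are two-sided and were adjusted by the Benjamini-Hochberg method across the genes tested, and 0.05 was the threshold. The fit was tested on simulated data. Plots used matplotlib 3.10.9 in Python 3.11.15. Upstream sequences came from RefSeq (GRCm38.p6).

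The comparison, the 42 gene lists and the tests were chosen with earlier results of these data known. Named genes followed a rule: the 12 largest differences each way among genes whose groups do not overlap, the 10 smallest p, list members without overlap or at an unadjusted p under 0.05, 11 chosen genes, the 5 smallest p of each other comparison, and abundant list members without a difference. The rule allows fewer names, and not all its genes are named. Genes outside it, among them Adipoq, Cd74, H2-Ab1 and genes named for contrast, were picked after their values were seen. Alternatives were all arrays, only the compared arrays, array weights, cyclic loess, normexp with an offset of 50, no floor, a floor of 200, the mean of all probes, blocking by replicate number, leaving out each array, and leaving out both arrays high in Slc14a2. The main fit did not pair 10 Gy with control arrays by replicate number, as the labels give no more than a shared number.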

Additional observations from a re-analysis of the deposited data

Results flagged for a closer look

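Pde1a was singled out because its response to 10 Gy at 4.5 months differed between cortex and medulla, by 0.755 ± 0.149 on the log2 scale, cortex minus medulla, with a limma adjusted p of 0.0468. The difference was 0.49 in cortex and -0.26 in medulla. In cortex 3 of 3 arrays at 10 Gy lay above all controls, and in medulla the groups overlapped.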

How the results depend on the processing

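For 10 Gy against control cortex at 4.5 months, 0 genes passed in each alternative except without 10 Gy replicate 1, where 1 did (Wfdc15b, -0.77), a range of 0 to 1 with each array left out. The count of 23 genes apart by 1.5-fold, whose runs without each array were chosen after seeing the data, ranged from 32 to 120. It was 136 without both arrays high in Slc14a2. Groups of fewer arrays overlap less often, and the part of this in the counts was not tested. For 10 against 3 Gy the 8 calls became 3 with all arrays, 1 with only the compared arrays, 4 with array weights, 2 with a floor of 200, and 1 to 12 with each array left out. For 10 against 0.3 Gy the 2 calls became 0, 1 and 4 with all arrays, only the compared arrays and array weights, and 0 to 5 with each array left out. The change between 4.5 and 3 months gave 0 calls, 2 with array weights and 0 to 2 with each array left out. At 3 months the 0 calls became 1 with only the compared arrays, 2 with array weights and 0 to 2 with each array left out, and at 1.5 months 1 with only the compared arrays. The 1 call between tissues became 0 with all arrays, only the compared arrays, cyclic loess, no floor or the mean of all probes, 3 with array weights, and 0 to 2 with each array left out. The causes were not tested. The array-weights fit stopped before it converged fully. Dnajb1, at -0.01, changed sign to 0.0113 with array weights and ranged from -0.0768 to 0.0801 with each array left out, and gave 0.043 without both arrays high in Slc14a2. Sdhc, at 0.13, gave -0.0878 with the mean of all probes. The others of the 99 genes run singly in these settings kept their direction. Further genes named in the text, such as Cd74, H2-Ab1, Adipoq and Nuak2, were not run singly. Without both arrays high in Slc14a2, Atm gave 0.10, Cirbp 0.31, Ptpn22 0.30, Chordc1 -0.17, Slc8a1 -0.18, Sqle -0.18, Dhcr7 -0.15, Creld2 -0.26, Serpinh1 -0.09, Fkbp4 -0.09 and Atp5d -0.09, and the medians were -0.19 for iron genes, -0.09 for heat shock genes, -0.02 for glucocorticoid targets, 0.02 for apoptosis genes, 0.08 for matrix genes, 0.06 for tubular injury genes, 0.07 for endothelial, -0.10 for podocyte and -0.00837 for proximal tubule markers, and 0.00543 for the respiratory chain. Array weights brought the medians of MHC class I to -0.17, of MHC class II to -0.30, of macrophage markers to -0.06 and of smooth muscle markers to -0.09, the mean of all probes that of macrophage markers to -0.09, and a floor of 200 that of iron genes to -0.06.

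Same-numbered 10 Gy and control cortex arrays deviated from their group means with r of -0.27, -0.33 and -0.29, against 0.05 to 0.23 for different numbers. The labels give these samples only a shared number, and the source of this pattern was not tested. With the replicate block, 0 genes passed for 10 Gy against control, 9 for 10 against 3 Gy, 2 for 10 against 0.3 Gy, 1 for the change between times and 0 between tissues. Cortex and medulla arrays of 1 number correlated at 0.38, 0.56 and 0.52 at 10 Gy and at 0.27, -0.06 and 0.27 in controls, and a replicate block shared by the 2 tissues, chosen after seeing the data, gave 4 calls, Ilrun, Pde1a, Tfap2b and Tab2. The number of arrays, 3 a group, limits the precision.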
